A study of Mus musculus with 12 samples.

Results

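The genes described here are the interferon-induced genes, the interferon receptors, and the IRF and STAT transcription factors, as measured in fallopian tubes of mogp-TAg transgenic and wildtype mice. They were picked by a rule on gene symbols (the Ifi, Ifit, Ifitm, Oas, Gbp, Irgm, Mx, Isg, Irf, Stat and Parp9 to Parp14 symbols, the receptors, and single genes such as Usp18 and Rsad2). Of 84 matching genes on the platform, 64 had values and 20 were blank on all arrays, among 11229 named genes with values in all. The blank genes included Ifit1, Iigp1, Parp9, Xaf1, Ifnar1 and Stat5b. The rule also takes Isg20l2 by the first letters of its symbol, and whether interferon induces it was not tested here.

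In the mogp-TAg mice the mouse oviductal glycoprotein promoter drives the large T antigen of SV40, and this promoter works in secretory cells of the tubal epithelium. There were 3 transgenic and 3 wildtype C57BL6 female mice, with 1 mouse of each genotype aged 7 weeks, 1 aged 8 weeks and 1 aged 9 weeks, and each mouse was measured on 2 arrays. RNA came from the whole tube, so a difference in a gene may come from fewer or more cells of a type or from less or more RNA per cell, and these cannot be told apart. The labels do not say whether the 2 arrays of a mouse share an RNA extract, so the mouse was the replicate. The viral transgene was not analysed here.

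Interferons are secreted proteins that cells release on sensing viral or misplaced nucleic acid. Type I interferons bind the Ifnar receptor and type II interferon binds Ifngr, and Janus kinases at these receptors then phosphorylate STAT proteins. STAT2 and IRF9 are parts of the complex ISGF3, which binds the interferon-stimulated response element (ISRE), while STAT dimers bind the gamma-activated site (GAS). The induced genes encode RNA sensors, enzymes that block viral replication, the ubiquitin-like protein ISG15 and GTPases that act on the membranes around pathogens. Interferon epsilon is known from the epithelium of the female reproductive tract.

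The promoter stretches below are shown because they belong to members that were higher in the transgenic tubes and hold the ISRE-type pattern. The pattern searched was GAAANNGAAA on both strands of the 250 bases before each transcript start in the RefSeq promoter table, and matches may overlap. Such a start can lie inside the span of the gene where another transcript begins further upstream, and only bases outside that span are printed. The matches of Ifit3 lie before a start 410 bases inside its span and are therefore not shown. Of the 11 higher members with the pattern, the 6 shown have the largest differences among those with all matches outside the span. Each line is written 5′ to 3′ on the strand of the gene, with bases that lie in a match in capitals. Sequences and positions are from RefSeq, build GRCm38.p6, with Isg15 at chr4:156200855-156200916 (minus strand), Rsad2 at chr12:26456543-26456592 (minus strand), Gbp3 at chr3:142559979-142560015 (plus strand), Oas1g at chr5:120887614-120887651 (minus strand), Igtp at chr11:58199491-58199551 (plus strand) and Stat2 at chr10:128270256-128270305 (plus strand).
Isg15: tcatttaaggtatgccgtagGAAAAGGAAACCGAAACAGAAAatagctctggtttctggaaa
Rsad2: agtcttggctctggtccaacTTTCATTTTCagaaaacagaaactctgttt
Gbp3: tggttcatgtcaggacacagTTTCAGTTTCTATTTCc
Oas1g: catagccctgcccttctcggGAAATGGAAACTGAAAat
Igtp: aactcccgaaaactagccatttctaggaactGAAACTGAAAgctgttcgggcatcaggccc
Stat2: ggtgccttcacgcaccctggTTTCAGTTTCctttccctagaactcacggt
The ISRE-type matches in these windows numbered 3 in Isg15, 1 in Rsad2, 2 in Gbp3, 2 in Oas1g, 1 in Igtp and 1 in Stat2.

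Most of these genes were higher in the transgenic tubes. Of the 64 members, 34 (53.1%) were higher at a limma adjusted p below 0.05 over all probes, where 10.4% of all named genes were higher. A further 2 members (3.12%), Stat3 and Stat6, were lower, where 12.5% of all named genes were lower, and 28 did not pass the threshold. The median log2 difference, transgenic minus wildtype, was 0.53 over the members and -0.02 over all named genes. All 3 transgenic mice lay above all 3 wildtype mice in 43 members (67.2%), against 18.9% of all named genes. Without the transgenic mouse of 8 weeks, 23 members were higher and 0 lower, where 5.46% of all named genes were higher and 6.09% lower.

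**Figure D1:**
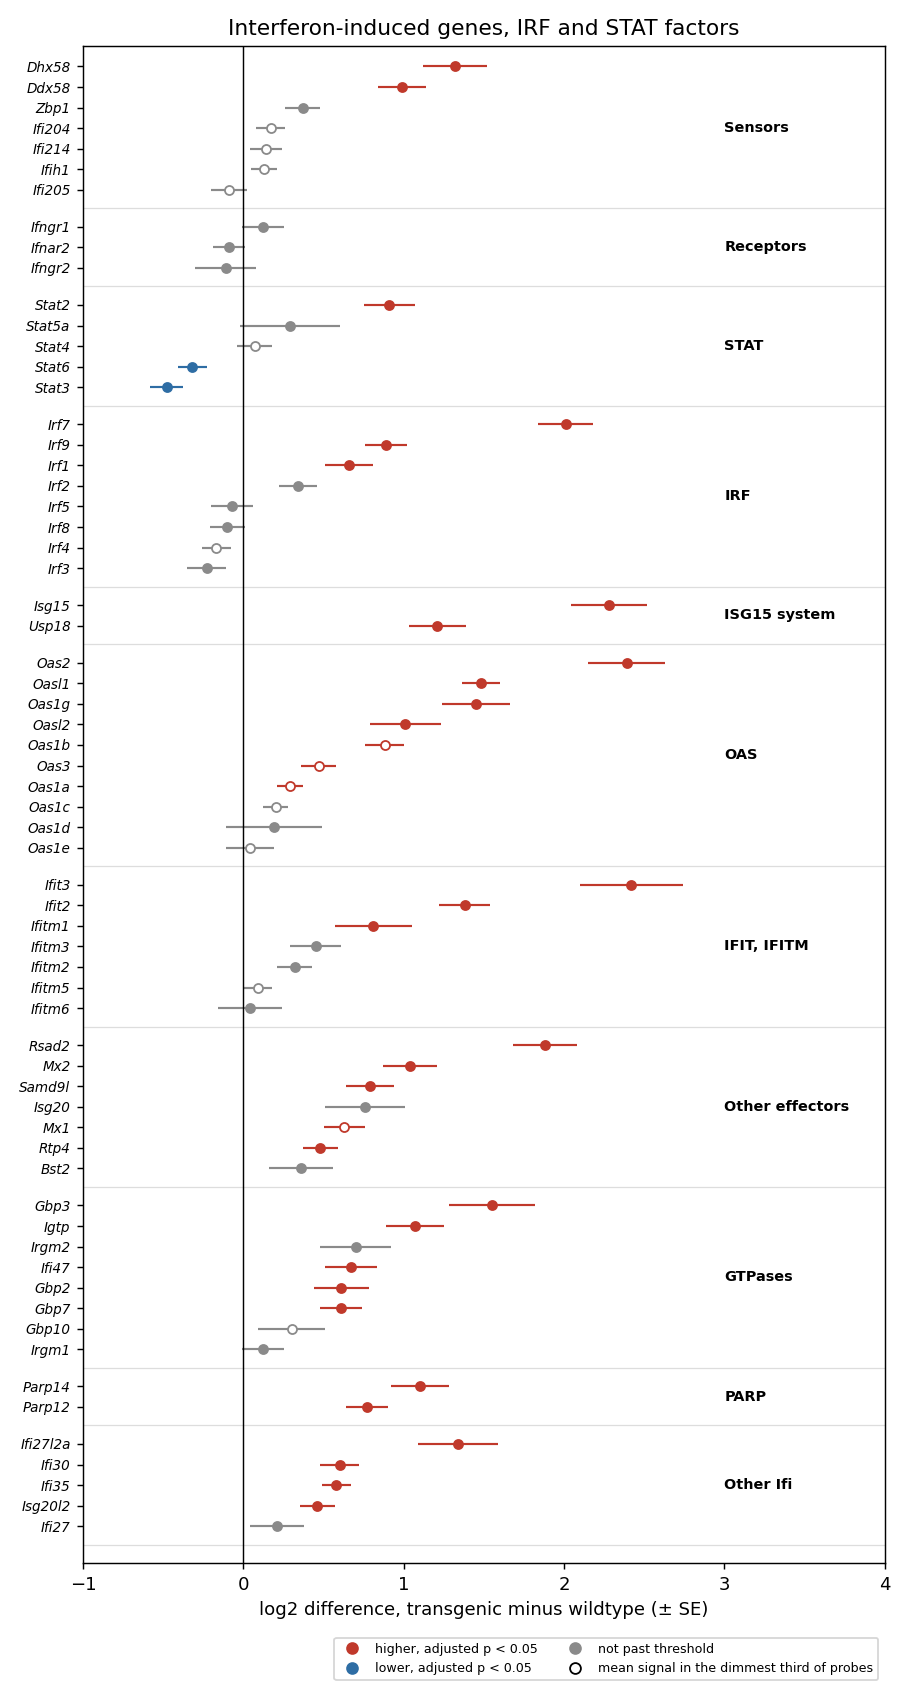
Log2 difference, transgenic minus wildtype (x axis), of each of the 64 members, grouped by role, with points at the fitted difference, bars of 1 SE, and 3 mice per genotype. The 34 members that were higher stand in red and reach 2.42 in Ifit3, the 2 that were lower stand in blue, and open points mark the 14 dim members, with a mean signal below 147.

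The 4 members with a difference of log2 2 or more were Ifit3, Oas2, Isg15 and Irf7. Ifit3, which binds viral RNA together with other IFIT proteins, had normalised signals of 3406, 4390 and 3093 in the transgenic mice of 7, 8 and 9 weeks, against 553, 473 and 1163 in the wildtype mice of those ages. The lowest transgenic mouse was well above the highest wildtype mouse, which was the one of 9 weeks. The difference was log2 2.42 (SE 0.32, 5.34-fold, limma adjusted p = 0.00244), and the other probes of Ifit3 gave 2.36 and 2.25.

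**Figure D2:**
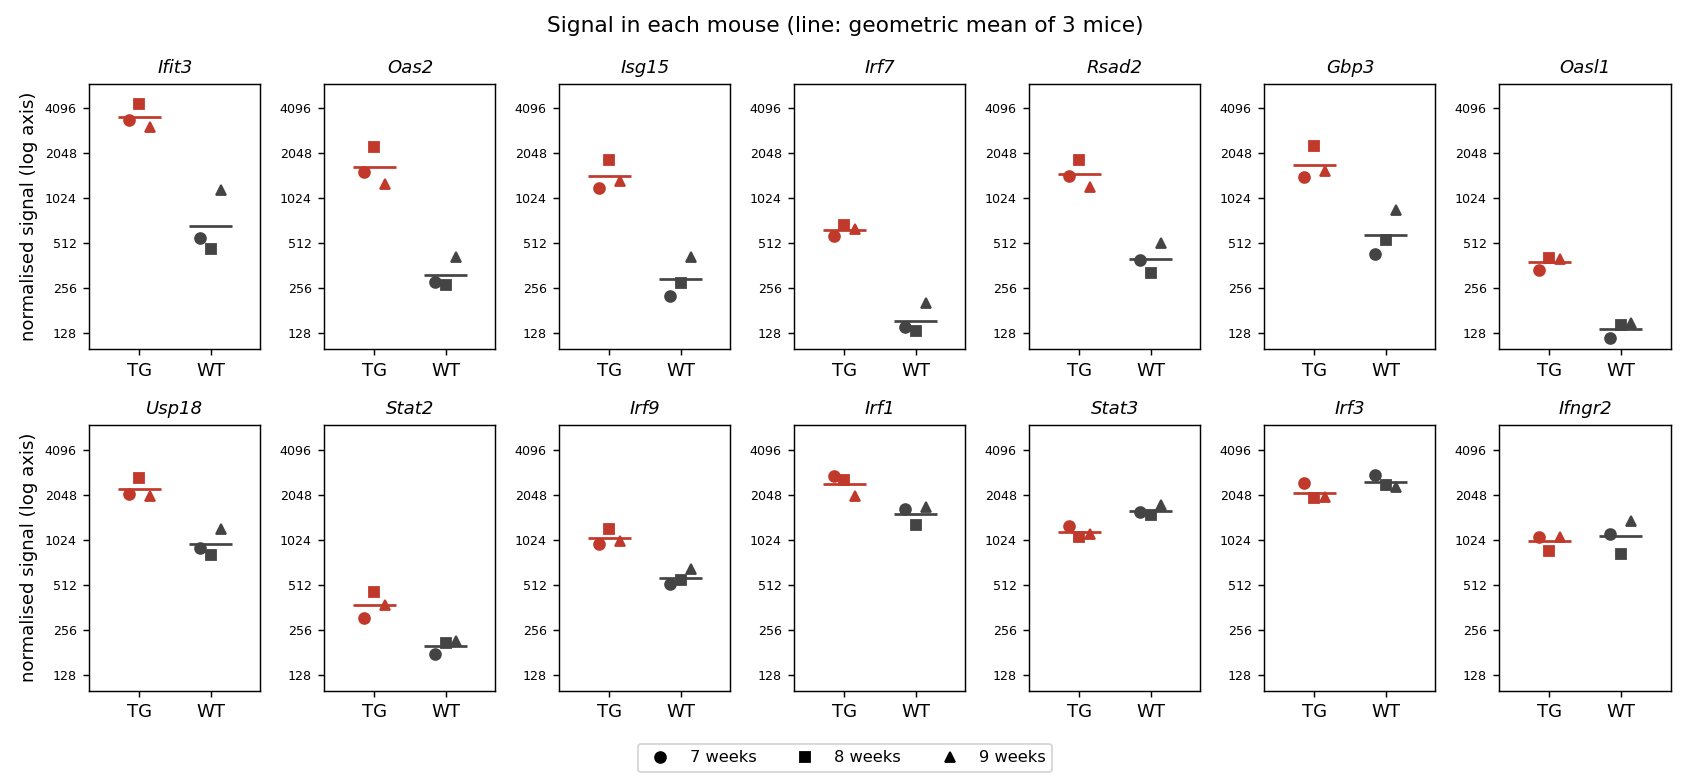
Normalised signal on a log axis for 14 members, with a point for each mouse (circle 7, square 8, triangle 9 weeks), transgenic left (TG, red) and wildtype right (WT, grey), and lines at the geometric mean of 3 mice. The groups do not overlap in Ifit3 and Oas2, where the lowest transgenic signals were 3093 and 1286 and the highest wildtype signals 1163 and 415, and they overlap in Irf3 and Ifngr2.

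Of 7 sensors of RNA, DNA or Z-form nucleic acid, 2 were higher. Dhx58 (LGP2), a regulator of RIG-I-like sensing, had signals of 427, 660 and 618 in transgenic mice and 191, 210 and 278 in wildtype mice. The groups did not overlap, and the difference was log2 1.32 (SE 0.20, limma adjusted p = 0.00412). Ddx58 (RIG-I), a sensor of viral RNA, had 406, 584 and 456 in transgenic mice and 218, 260 and 243 in wildtype mice, a difference of 0.99 (SE 0.15, limma adjusted p = 0.00358). The other 5 sensors did not pass, with differences between -0.09 and 0.37 and adjusted p between 0.0548 and 0.592, and 4 of them (Ifih1, Ifi204, Ifi205 and Ifi214) were dim, which here means a mean signal below 147. Zbp1, a sensor of Z-form nucleic acid (0.37), passed without the transgenic mouse of 9 weeks (0.49, limma adjusted p = 0.0167).

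The measured receptor subunits did not pass the threshold, and Ifnar1 was blank on all arrays. Ifnar2, a subunit of the type I receptor, had signals of 165, 155 and 172 in transgenic mice and 181, 155 and 189 in wildtype mice (log2 difference -0.09, SE 0.10, limma adjusted p = 0.578). Ifngr1, which binds type II interferon, had 590, 534 and 421 in transgenic mice and 496, 473 and 437 in wildtype mice (0.12, SE 0.13, adjusted p = 0.557 by limma). Ifngr2, its partner chain, had 1074, 863 and 1070 in transgenic mice and 1111, 825 and 1363 in wildtype mice (-0.11, SE 0.19, adjusted p = 0.714 by limma). The other probes of Ifngr2 gave 0.25 (limma adjusted p = 0.131) and 0.21 (limma adjusted p = 0.167). At the brightest probe of each, the genotypes overlapped in all 3 receptor genes.

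The STAT factors moved in both directions. Stat2, the STAT of the ISGF3 complex, had signals of 308, 459 and 373 in transgenic mice and 177, 209 and 214 in wildtype mice, with no overlap (log2 0.91, SE 0.16, limma adjusted p = 0.00667). Stat3, which carries signals of interleukin-6 family cytokines, had 1267, 1061 and 1118 in transgenic mice and 1558, 1498 and 1750 in wildtype mice (-0.48, SE 0.10, limma adjusted p = 0.017). Its other probes gave -0.35 and -0.12 and did not pass. Stat6, the transducer of interleukin-4, had 217, 210 and 195 in transgenic mice and 267, 244 and 268 in wildtype mice (-0.32, SE 0.09, limma adjusted p = 0.0351). Every transgenic mouse lay below every wildtype mouse for Stat3 and Stat6. Neither call held without the transgenic mouse of 8 weeks, the transgenic mouse of 9 weeks or the wildtype mouse of 9 weeks (limma adjusted p = 0.0771, 0.0521 and 0.0589 for Stat3, and 0.107, 0.0897 and 0.108 for Stat6), and that of Stat6 was lost without the wildtype mouse of 7 weeks too (limma adjusted p = 0.107). Stat5a had 354, 399 and 452 in transgenic mice and 263, 571 and 235 in wildtype mice, and the wildtype mouse of 8 weeks was the highest of all (0.29, limma adjusted p = 0.561), and without that mouse Stat5a was higher in transgenic tubes (0.69, limma adjusted p = 0.0151). Stat4 was dim, at 125, 116 and 108 in transgenic mice and 102, 126 and 105 in wildtype mice (0.07, limma adjusted p = 0.698).

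Among the 8 IRF factors, 3 were higher and 0 lower. Irf7, the factor that amplifies type I interferon production, had signals of 573, 680 and 641 in transgenic mice and 142, 132 and 203 in wildtype mice. The groups lay far apart, with a difference of log2 2.01 (SE 0.17, 4.03-fold, limma adjusted p = 4.60e-04). Irf9, the DNA-binding part of ISGF3, had 962, 1203 and 998 in transgenic mice and 514, 548 and 647 in wildtype mice (0.89, SE 0.13, limma adjusted p = 0.00316). Irf1, a factor induced by type II interferon, had 2710, 2570 and 2016 in transgenic mice and 1645, 1277 and 1685 in wildtype mice (0.66, SE 0.15, limma adjusted p = 0.0217). The genotypes did not overlap in these 3 genes, and Irf1 did not pass without the transgenic mouse of 8 weeks (0.62, limma adjusted p = 0.0914).

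The other IRF factors did not pass the threshold. Irf2, which competes with Irf1 for DNA, had signals of 2253, 2408 and 1976 in transgenic mice and 1948, 1510 and 1804 in wildtype mice (0.34, limma adjusted p = 0.0953). Irf3, which is present before infection and activated by phosphorylation, had 2433, 1937 and 1977 in transgenic mice and 2768, 2387 and 2296 in wildtype mice (-0.23, limma adjusted p = 0.217). Of the factors of immune cells, Irf8 had 213, 170 and 195 in transgenic mice and 226, 188 and 205 in wildtype mice (-0.10, limma adjusted p = 0.567). The groups overlapped in Irf3 and Irf8 and did not in Irf2. Irf5 had 198, 192 and 155 in transgenic mice and 184, 171 and 216 in wildtype mice (-0.07, limma adjusted p = 0.746), and Irf4, a dim gene, had 103, 106 and 96.5 in transgenic mice and 118, 106 and 119 in wildtype mice (-0.17, limma adjusted p = 0.211).

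Both measured genes of the ISG15 system were higher. Isg15, the ubiquitin-like modifier, had signals of 1204, 1858 and 1338 in transgenic mice and 229, 277 and 416 in wildtype mice (log2 2.28, SE 0.24, 4.84-fold, limma adjusted p = 0.00101). Usp18, the protease that removes ISG15 and restrains Ifnar signalling, had 2061, 2654 and 2017 in transgenic mice and 906, 805 and 1215 in wildtype mice (1.21, SE 0.18, limma adjusted p = 0.00341). The genotypes did not overlap in either gene.

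The OAS family, enzymes that make the activator of RNase L and their relatives, had 7 of 10 members higher. Oas2 had signals of 1548, 2258 and 1286 in transgenic mice and 284, 268 and 415 in wildtype mice (log2 2.39, SE 0.24, 5.23-fold, limma adjusted p = 8.14e-04). Oasl1, an OAS-like protein, had 342, 409 and 404 in transgenic mice and 119, 145 and 151 in wildtype mice (1.48, SE 0.12, limma adjusted p = 4.60e-04). Oas1g had 1144, 1532 and 1245 in transgenic mice and 347, 517 and 592 in wildtype mice (1.45, SE 0.21, limma adjusted p = 0.00313). No wildtype mouse reached the lowest transgenic mouse in any of them. Oasl2 (1.01), Oas1b (0.88), Oas3 (0.47) and Oas1a (0.29) were higher too, the last 3 of them dim, and Oas1c (0.20, adjusted p = 0.13), Oas1d (0.19, adjusted p = 0.692) and Oas1e (0.04, adjusted p = 0.889) did not pass by limma. Leaving out single mice ended the calls of Oasl2 (without the transgenic mouse of 8 or 9 weeks or the wildtype mouse of 7 weeks, limma adjusted p 0.0502 to 0.0762) and of Oas3 and Oas1a (without any mouse but the transgenic one of 7 weeks, 0.0532 to 0.14). Several of these genes are near copies of each other, and probe specificity was not tested. A cluster of 8 of them lies at chr5:120730333-120921648 (GRCm38.p6), of which 5 were higher.

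Of 7 IFIT and IFITM genes, 3 were higher. Ifit2, an RNA-binding relative of Ifit3, had signals of 435, 591 and 450 in transgenic mice and 180, 163 and 226 in wildtype mice (log2 1.38, SE 0.16, limma adjusted p = 0.00146). Ifitm1, a membrane protein that blocks viral entry, had 1685, 988 and 1129 in transgenic mice and 727, 548 and 878 in wildtype mice (0.81, SE 0.24, limma adjusted p = 0.0476). The genotypes did not overlap in either gene. The other probes of Ifitm1 gave -0.21 (limma adjusted p = 0.16) and -0.08 (limma adjusted p = 0.75), so its probes disagreed, and its call failed the threshold whichever mouse was left out (limma adjusted p 0.0506 to 0.107). Ifitm3 (0.45, limma adjusted p = 0.0876) and Ifitm2 (0.32, limma adjusted p = 0.0775) did not pass, although Ifitm3 did without the wildtype mouse of 9 weeks (0.59, limma adjusted p = 0.0442), nor did Ifitm5 (0.09) and Ifitm6 (0.04).

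Among the other antiviral effectors, 5 of 7 were higher. Rsad2 (viperin), which makes a chain-terminating nucleotide, had signals of 1439, 1858 and 1220 in transgenic mice and 397, 324 and 512 in wildtype mice (log2 1.88, SE 0.20, 3.67-fold, limma adjusted p = 0.00107). Mx2, a dynamin-like GTPase, had 318, 410 and 302 in transgenic mice and 171, 136 and 195 in wildtype mice (1.04, SE 0.17, limma adjusted p = 0.00527). Samd9l, an antiviral factor, had 2429, 3385 and 2568 in transgenic mice and 1418, 1698 and 1696 in wildtype mice (0.79, SE 0.15, limma adjusted p = 0.00918). The groups were apart in all 3. Mx1 (0.63), a dim gene here, and Rtp4 (0.48) were higher, and Isg20, an exonuclease (0.76, limma adjusted p = 0.0676), and Bst2 (tetherin, 0.36, limma adjusted p = 0.235) did not pass. Without the wildtype mouse of 7 weeks Isg20 passed (0.97, limma adjusted p = 0.0379), while Mx1 (limma adjusted p = 0.0548) and Rtp4 (limma adjusted p = 0.063) did not. Mx1 also failed without the wildtype mouse of 9 weeks (limma adjusted p = 0.0515), and Rtp4 without the transgenic mouse of 8 weeks (limma adjusted p = 0.0738) or 9 weeks (limma adjusted p = 0.0549).

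Of 8 interferon-inducible GTPases, 5 were higher. Gbp3, a guanylate-binding protein, had signals of 1419, 2280 and 1550 in transgenic mice and 436, 542 and 852 in wildtype mice (log2 1.55, SE 0.27, limma adjusted p = 0.00747). Igtp, an immunity-related GTPase, had 898, 1231 and 886 in transgenic mice and 420, 430 and 582 in wildtype mice (1.07, SE 0.18, limma adjusted p = 0.00564). Ifi47, of the same family, had 773, 1041 and 803 in transgenic mice and 460, 558 and 625 in wildtype mice (0.67, SE 0.16, limma adjusted p = 0.0221). The genotypes were apart in each. Gbp2 and Gbp7 (0.61 each) were higher, and Irgm2 (0.70, limma adjusted p = 0.057) and Gbp10 (0.30, limma adjusted p = 0.356) did not pass. Without the transgenic mouse of 8 weeks, Ifi47 (0.54, limma adjusted p = 0.0759), Gbp2 (0.46, limma adjusted p = 0.13) and Gbp7 (0.58, limma adjusted p = 0.074) did not pass. The calls also ended without the wildtype mouse of 7 weeks for Ifi47 (limma adjusted p = 0.0637) and Gbp2 (limma adjusted p = 0.118), without the transgenic mouse of 7 weeks (limma adjusted p = 0.0571) or the wildtype mouse of 8 weeks (limma adjusted p = 0.0855) for Gbp2, and without the transgenic mouse of 9 weeks for Gbp7 (limma adjusted p = 0.0509). Irgm2 passed without the wildtype mouse of 9 weeks (0.91, limma adjusted p = 0.026) and Gbp10 without the transgenic mouse of 7 weeks (0.55, limma adjusted p = 0.0252). For Irgm1 the brightest probe gave 0.12 (limma adjusted p = 0.576), while its other probes gave 1.25 (limma adjusted p = 0.00228) and 0.44 (limma adjusted p = 0.0116), so the probes of Irgm1 disagreed.

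The remaining groups were mostly higher. Parp14, an ADP-ribosyltransferase, had signals of 1552, 1997 and 1339 in transgenic mice and 659, 703 and 918 in wildtype mice (log2 1.10, SE 0.18, limma adjusted p = 0.00568). Parp12, of the same family, had 467, 636 and 520 in transgenic mice and 303, 300 and 341 in wildtype mice (0.77, SE 0.13, limma adjusted p = 0.00593). Ifi27l2a had 5551, 6963 and 6644 in transgenic mice and 1948, 2107 and 3874 in wildtype mice (1.34, SE 0.25, limma adjusted p = 0.0101). The genotypes did not overlap in these 3 genes, and Ifi27l2a did not pass without the transgenic mouse of 8 weeks (1.27, limma adjusted p = 0.051). Ifi30, a lysosomal thiol reductase, had 545, 568 and 703 in transgenic mice and 389, 381 and 421 in wildtype mice (0.60, limma adjusted p = 0.0107). Ifi35 had 441, 504 and 518 in transgenic mice and 334, 307 and 333 in wildtype mice (0.58, limma adjusted p = 0.00537). Both were apart between genotypes, Isg20l2 (0.46) was higher but failed without the transgenic mouse of 8 or 9 weeks or the wildtype mouse of 7 or 9 weeks (limma adjusted p 0.0567 to 0.102), and Ifi27 (0.21, limma adjusted p = 0.433) did not pass.

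Promoter windows were searched for the elements that ISGF3 and STAT dimers bind. Of the 64 members, 49 had a promoter in the RefSeq table. The ISRE-type pattern was present in 20 of these 49 (40.8%), against 3.46% of 27025 genes in the table. Within the members it was present in 11 of the 25 that were higher, in 9 of the 22 that did not pass and in 0 of the 2 that were lower, Stat3 and Stat6. The GAS-type pattern TTCNNNGAA, searched in the same way, was present in 12 of 49 (24.5%), against 8.13% of the table, and 6 members held both. It was present in 5 of the 25 that were higher, in 7 of the 22 that did not pass and in 0 of the 2 that were lower. Of the 26 members with a match of either kind, 9 had it only before a start inside the span of the gene. In Igtp, shown above, the GAS-type match lies just before the ISRE-type match. A match describes letters in these windows and is no evidence of binding.

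**Figure D3:**
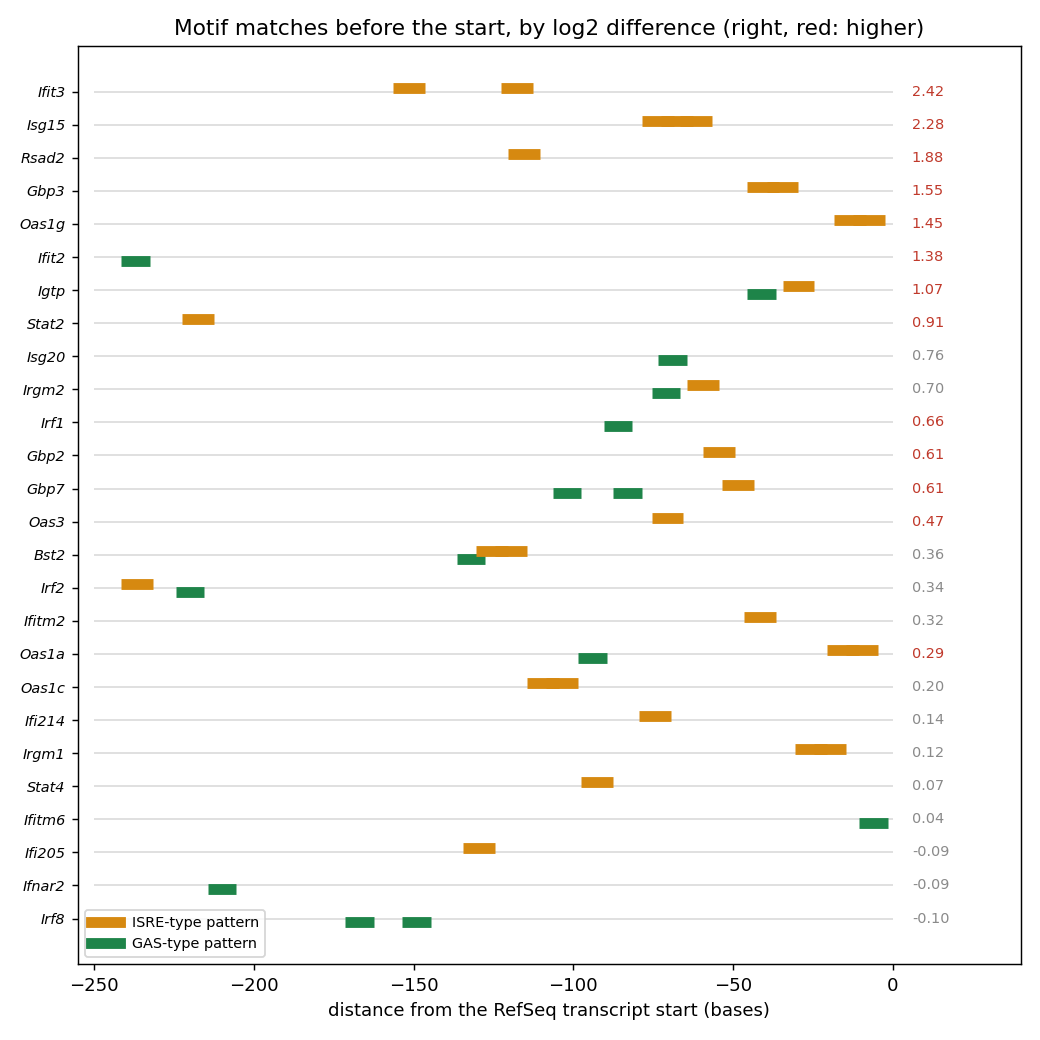
Positions of ISRE-type (orange) and GAS-type (green) matches in the 250 bases before a RefSeq transcript start (x axis, bases) of members that hold a match, ordered by log2 difference (right, red where higher). Matches stand in members from Ifit3 (2.42) down to Irf8 (-0.10).

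The comparison at a single age rests on 1 mouse of each genotype and carries no test. At 7 weeks 16 members (25.0%) were higher by log2 1 or more, against 3% of all named genes. At 8 weeks there were 24 (37.5%), against 3.51%, and at 9 weeks 8 (12.5%), against 3.49%. The median over the 34 members that were higher was 0.90 at 7, 1.15 at 8 and 0.68 at 9 weeks. Their difference was largest at 8 weeks in 29, at 7 weeks in 3 and at 9 weeks in 2, and the highest wildtype mouse was the one of 9 weeks in 28. The test of genotype by age, with 2 residual degrees of freedom, called 0 members and 0% of all named genes by limma. At an unadjusted p below 0.05 it held 1 member, Ifitm6 (-0.50 log2 per week), and 7.13% of all named genes, and the lowest adjusted p of a member was 0.755.

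**Figure D4:**
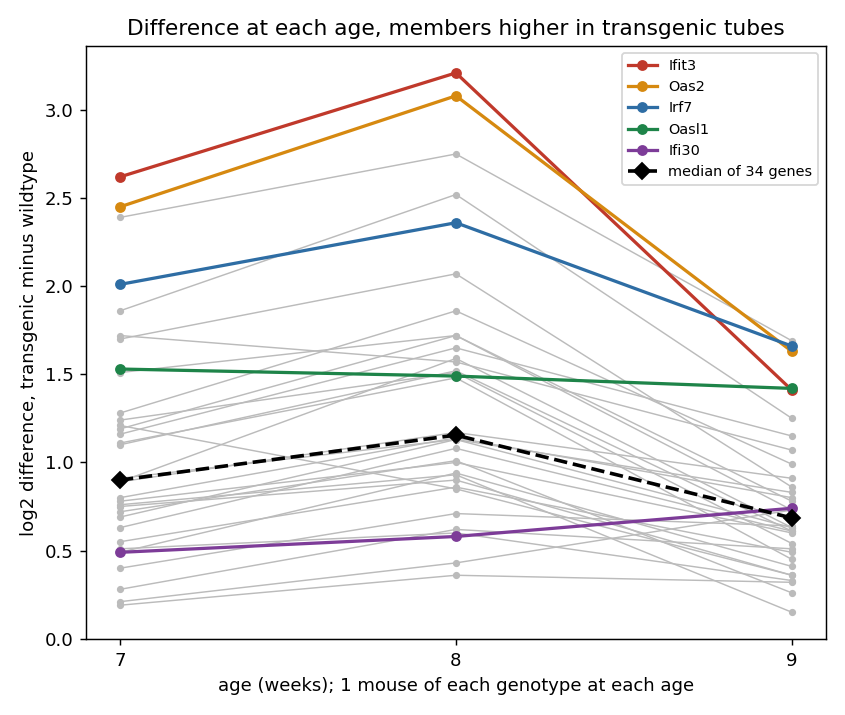
Log2 difference, transgenic minus wildtype, at 7, 8 and 9 weeks (x axis), a line for each of the 34 members that were higher, with 5 named in colour and the median dashed (0.90, 1.15 and 0.68). Each point compares 1 transgenic with 1 wildtype mouse, and 29 of the 34 lines peak at 8 weeks.

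The 2 arrays of each mouse were also read apart. Of all 64 members, 52 had a positive difference on the repeat 1 arrays and 53 on the repeat 2 arrays, with medians of 0.58 and 0.52. Over all named genes 46.8% and 48.1% were positive, with medians of -0.02 and -0.01. Both repeats come from the same mice, so this is no check on new animals.

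**Figure D5:**
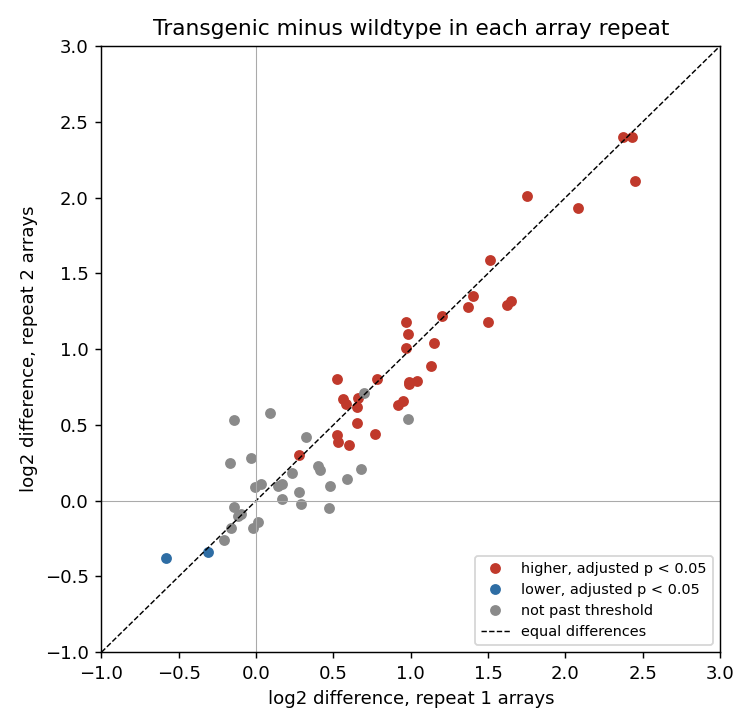
Log2 difference, transgenic minus wildtype, of the 64 members on repeat 1 arrays (x axis) and repeat 2 arrays (y axis), with the dashed line at equal differences. The 34 members that were higher (red) lie above 0 on both axes, which their call on the mean of both repeats nearly requires.

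Other genes of interferon production, signalling and response that the symbol rule leaves out were also read. The list held 109 symbols, some of them older names of another listed gene. They were matched as written, so a gene listed only under an older name could be missed. Of these symbols 76 had values, and of the 76 genes 41 were higher, 1 was lower and 34 did not pass, with a median of 0.43. Of all named genes 10.4% were higher and 12.5% lower. The list was chosen with earlier results of these data known, so its share is no independent support for the members. Without the transgenic mouse of 8 weeks 26 listed genes were higher, where 5.46% of all named genes were. Ifne, which encodes interferon epsilon, had signals of 337, 603 and 482 in transgenic mice and 176, 232 and 204 in wildtype mice, with no overlap (log2 1.18, SE 0.21, limma adjusted p = 0.00808). Ifnk, another type I interferon, was at -0.07 (limma adjusted p = 0.602), but it was dim, with signals of 84.2 to 100 over all mice. Ifnb1 and Ifng, also listed, had no values, so whether the rise was particular to Ifne cannot be told. Cxcl10, a chemokine that draws T cells, had 202, 341 and 237 in transgenic mice and 98.3, 100 and 113 in wildtype mice (1.29, SE 0.19, limma adjusted p = 0.00328). Apol9b (log2 1.83), Ly6e (log2 1.42) and the peptide-presenting chains H2-Q7 (log2 1.6) and B2m (log2 1.02) were higher. So were the immunoproteasome subunit Psmb9 (1.25), Nlrc5 (1.17), which drives class I genes, and the kinase Jak2 (0.68). Jak1 (-0.17, limma adjusted p = 0.337) and Tyk2 (0.17, limma adjusted p = 0.274) did not pass, and Ciita (-0.42), a dim gene that drives class II genes, was lower. The call of Ciita did not hold without the transgenic mouse of 8 or 9 weeks or the wildtype mouse of 7 or 9 weeks.

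Cell type markers moved as well, and their part in these results was not tested. The counts below stand beside 10.4% of all named genes higher and 12.5% lower, and the marker lists too were chosen with earlier results known. Of 11 macrophage and monocyte markers 5 were higher and 2, Cd163 (-0.97) and Mrc1 (-0.67), were lower. Their summed signal was 13883 to 21302 in transgenic mice and 10916 to 11639 in wildtype mice. The largest part of each sum was Lyz1, at 5883 to 9121 in transgenic mice and 4654 to 5994 in wildtype mice. Lyz1 overlapped between genotypes and did not pass (0.39, limma adjusted p = 0.172). In the transgenic mice of 7, 8 and 9 weeks the sums were 21302, 16148 and 13883. None of 7 T and NK cell markers, 4 B cell, 2 dendritic cell and 6 neutrophil markers passed. Of these markers 6, 3, 1 and 4, in that order, were dim, so that a missing call says little about these cells. T and NK sums were 2386 to 3357 in transgenic mice and 2111 to 3179 in wildtype mice. Most of each sum was Prf1, at 1674 to 2566 in transgenic mice and 1411 to 2503 in wildtype mice. Neutrophil sums were 4740, 882 and 705 in the transgenic mice of 7, 8 and 9 weeks. In the wildtype mice of those ages they were 582, 1243 and 606, so the high transgenic sum was that of 1 mouse. The secretory epithelium's markers summed to 40160 to 43139 in transgenic mice and 34904 to 40017 in wildtype mice. Of the 7, Wfdc2 (1.10) and Muc1 (0.83) were higher. The brightest, Ovgp1, went the other way, at 18541 to 20773 in transgenic mice and 22353 to 23114 in wildtype mice. Its difference did not pass (-0.24, limma adjusted p = 0.0831), nor did those of the other secretory markers (0.04 to 0.36). Markers of ciliated cells (7 of 7), smooth muscle (5 of 6) and mesothelium (4 of 4) were lower and all 5 measured markers of cell division were higher.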

How the data were processed

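The authors deposited a score for each probe, standardized within its array. GenomeStudio 1.6.0 is named in the submitters' processing notes. Signals with 1 decimal were solved from these values (100% of them on all 12 arrays, tolerance 0.01 of the last digit). A scanner table with 24 columns of per-sample values that match no single sample was not used. Of 25697 probes, 9033 were blank on all arrays and 16664 were tested. Signals were quantile-normalized without subtracting background, so that folds of dim genes are understated, then converted to log2 and averaged over the 2 arrays of a mouse. Array medians ran from 136.9 to 331.9, and the number of mice limits the precision. Genotypes were compared with limma 3.58.1 in R 4.3.3 (lmFit and eBayes, two-sided, Benjamini-Hochberg over all tested probes, threshold 0.05, 4 residual degrees of freedom). A gene was its brightest probe. The fits were tested on simulated data. Dim means a mean signal under 147, the limit of the dim probe filter. Nothing says that repeats are separate extracts. Members and lists were chosen with earlier results of these data known. Mouse values were given for up to 3 members of each role with the largest called differences and for all receptors, STAT and IRF genes. Python 3.11.15, numpy 2.4.6, pandas 2.3.3 and matplotlib 3.10.9 were used. Alternatives were normalization, background, deposited scores, dim probes, array weights, blocks, single repeats, each mouse left out, and probe means. Same-numbered arrays share a labelled repeat number: repeat differences of different mice correlated at 0.109 to 0.638. Deviations of same-age mice from their genotype means, taken over probes, correlated at 0.324, 0.0964 and -0.0707 at 7, 8 and 9 weeks.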

Additional observations from a re-analysis of the deposited data

How the results depend on the processing

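Over 16 alternative settings no called member changed sign, 20 of the 36 called members kept the call wherever they were tested, and 16 lost it at least once. With the replicate block over 12 arrays 39 members were higher and 2 lower, and 43 pathway genes were higher and 2 lower, where 12.9% of all named genes were higher and 15.6% lower. Array weights, which gave the transgenic mouse of 8 weeks a weight of 5.37, called 41 members higher, and 51 pathway genes higher and 2 lower, where 18.7% of all named genes were higher and 22.5% lower (10.4% and 12.5% with equal weights). Leaving out each mouse gave 23 to 33 members higher, 0 to 2 members lower, 26 to 41 pathway genes higher and 0 to 2 pathway genes lower, with 5.46% to 10.8% of all named genes higher, the lowest counts of higher genes being those without the transgenic mouse of 8 weeks. Members lower numbered 1 without the dim probes, with age as a block, on repeat 1 arrays and with the mean over probes, and 0 on repeat 2 arrays. Pathway genes lower numbered 0 without the dim probes and on repeat 2 arrays. Leaving out the dim probes, which left 50 members, gave a member median of 0.67. The cause of these changes was not tested. Stat3 lost its call in 5 settings, Stat6 in 8, Ifitm1 and Oas1a in 9 each, Gbp2 in 7, Oas3 and Isg20l2 in 6 each, Rtp4 in 4, Oasl2 and Ifi47 in 3 each, Irf1, Mx1 and Gbp7 in 2 each, and Ifi27l2a, Ifi30 and Ifi35 in 1 each. Irgm2 gained a call in 6 settings, Isg20 and Zbp1 in 5 each.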
